A study of Mus musculus with 9 samples.

Results

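Ovariectomized female mice, the group named D21-ovx, were compared with sham-operated male mice, the group named M, in RNA sequencing of sorted kidney cells. The comparison takes 6 of the 9 libraries of the series, 3 per group, and 12916 genes of the 52405 entries in the expression table. FPKM, fragments per kilobase of transcript and per 1e6 mapped fragments, is a level corrected for transcript length. Genes entered the comparison if 3 or more of the 6 libraries reached an FPKM of 1. All mice were C57BL/6. D21-ovx females had their ovaries removed at postnatal day 21, before puberty. M animals were adult males with a sham operation on a day that the labels used here do not state. The third group, D21-s, consisted of females sham-operated at postnatal day 21, and its 3 libraries serve below as a second reference. The labels used here name no hormone treatment and no castration in any group. In every group the kidney cortex was dissociated and cells bearing prominin-1, a protein of the brush border, were held on a magnetic column. The labels call the 3 libraries of a group biological replicates but do not say how many animals gave each one. The labels used here give no age at collection for the females. Sex chromosomes, gonadal hormones, the operation and possibly age differ between D21-ovx and M, and these cannot be told apart in this comparison.

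The proximal tubule reclaims filtered sugar, amino acids, phosphate and protein, secretes organic anions and cations into the urine, and makes glucose and ammonia. In mice it differs between the sexes. Testosterone, acting on these cells, is known to hold up a set of male genes that includes Kap, Odc1 and Slc7a13, while many genes that are higher in females are known to be held down by it. Removing the ovaries takes away estradiol and progesterone and leaves a female with little gonadal steroid of either kind.

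The 6 libraries had similar size and composition. The estimated depth was 21.25 to 25.0 M reads (1e6 reads), mitochondrially encoded transcripts made up 24.6% to 27.3% of the summed FPKM, and 12428 to 13115 genes reached 1 FPKM. Markers of the proximal tubule were strong in every library, with summed FPKM of 6663 to 9857 over 12 genes of its early part, among them the phosphate transporter gene Slc34a1 at 2548.73 to 3358.68. The fraction was not pure. The thiazide-sensitive sodium chloride transporter gene Slc12a3, which marks the distal convoluted tubule, stood at 457.17, 569.76 and 619.12 FPKM in M and at 356.9, 226.9 and 352.54 in D21-ovx. A score averaged over 71 markers of distal nephron, glomerular, vascular, interstitial and blood cells was 0.329, 0.694 and 0.408 in M and 0.23, -0.402 and -0.294 in D21-ovx, on a log2 scale centred over the 9 libraries. The score of every M library was above that of every D21-ovx library. In bulk RNA fewer cells of a type and less RNA per cell cannot be told apart.

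Cells of ovariectomized females differed from those of males in the enzymes and carriers that handle drugs, steroids, fatty acids and amino acids. Among genes for glutathione transfer, fatty acid oxidation, gluconeogenesis and the breakdown of betaine, tyrosine and tryptophan, the members that passed the test were mostly higher in D21-ovx. The male set of Kap, the P450 genes Cyp2j13 and Cyp4b1 and the amino acid transporter gene Slc7a13 was far lower. Several gene families split, with some members many times higher and close relatives many times lower. Receptors of protein uptake, iron genes and respiratory chain subunits had few or no called members.

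Of the 12916 genes, 618 (4.78%) were called higher in D21-ovx and 728 (5.64%) were called lower, by limma on log2(FPKM + 1) at a Benjamini-Hochberg adjusted p under 0.05. A difference of 2-fold or more was reached by 162 of the higher and 137 of the lower genes, and one of 8-fold or more by 16 and 17. The 3 libraries of each group did not overlap for 1401 genes (10.8%) with D21-ovx higher and for 3021 genes (23.4%) with D21-ovx lower. The median log2 difference over all genes tested was -0.089, so the table as deposited leans slightly towards M. Along the first principal component, with 59.3% of the variance, M lay at -31 to -21.1 and D21-ovx at 19.7 to 29.8. Higher genes made up 45.9% of the calls as deposited, 63.3% after median-ratio scaling (886 higher, 513 lower) and 56.8% after quantile normalization (648 and 493). Leaving out 1 library at a time changed the counts by more than 1.5 times in most cases. They were 379 higher and 573 lower without D21-ovx library 1, 321 and 239 without library 2, and 313 and 270 without library 3. Without M library 1 they were 680 and 878, without M library 2 they were 414 and 276, and without M library 3 they were 365 and 226. With the score of other cell types as a covariate, 114 genes were called higher and 64 lower. Counts and differences under this covariate are given below as values with the marker covariate. The score is itself built from other cells' markers and differs between the groups, so a call can be lost with the covariate while the difference stays about as large.

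**Figure D1:**
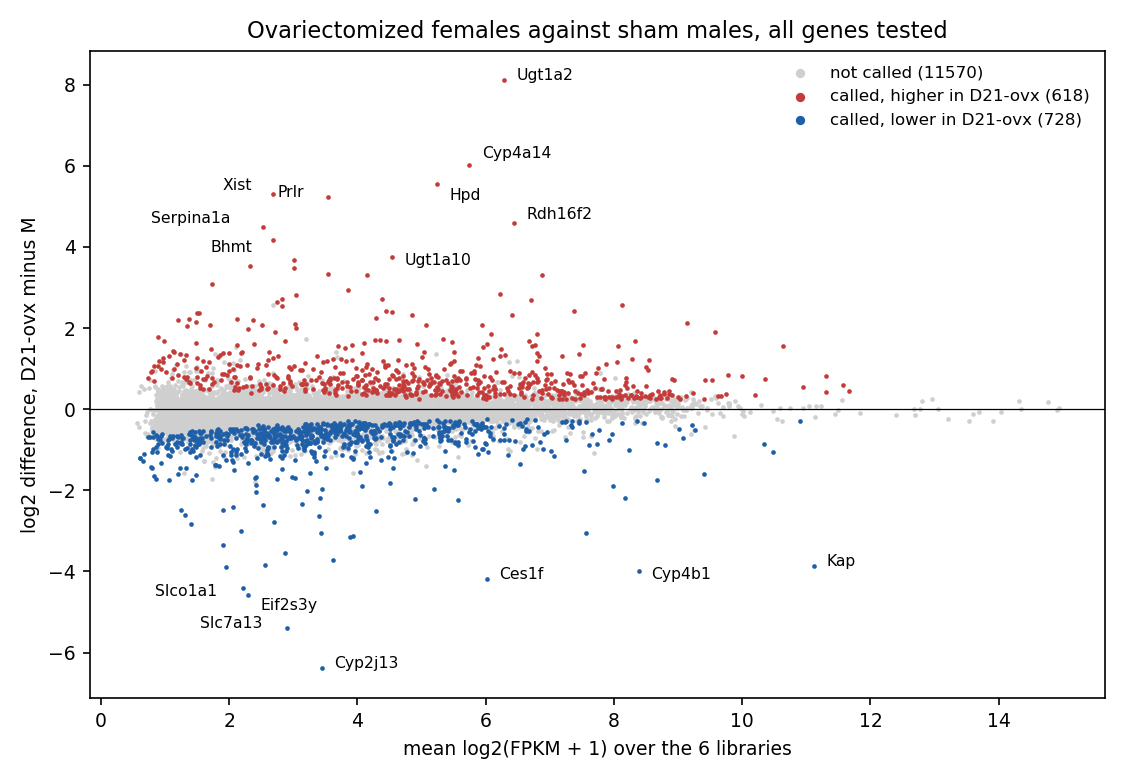
Each dot is 1 of the 12916 genes, placed by its mean log2(FPKM + 1) over the 6 libraries and by its log2 difference, D21-ovx minus M. The 618 genes called higher are red and the 728 called lower are blue, and the named genes reach 8.11 (Ugt1a2) and -6.39 (Cyp2j13).

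The gene with the largest difference was Ugt1a2 (ENSMUSG00000090171), which encodes a glucuronosyltransferase, an enzyme that joins glucuronic acid to drugs and steroids. Its level was 1222.38, 1374.08 and 1320.77 FPKM in D21-ovx and 2.96, 4.79 and 3.56 FPKM in M, a log2 difference of 8.11 (SE 0.14, adjusted p = 1.73e-07). No male library came near any D21-ovx library. Hpd (ENSMUSG00000029445), the gene of the dioxygenase of tyrosine breakdown, was at 258.33, 253.64 and 269.2 FPKM in D21-ovx against 5.55, 4.46 and 3.72 in M, a log2 difference of 5.56 (SE 0.12, adjusted p = 5.63e-07). The promoters of the 2 leading autosomal genes in each direction that have an entry in the RefSeq promoter table are shown here because these genes carry the contrast. Each spans 300 bases around the start of the gene on build GRCm38.p6, 5′ to 3′ on the strand of the gene. Capitals mark matches, on either strand, to AGAACA (a steroid receptor half-site), AGGTCA (a nuclear receptor half-site), TTCNNNGAA (a STAT site) or GTTAAT (an HNF1 half-site). Ugt1a2 is at chr1:88200361-88200660 on the plus strand, Hpd at chr5:123182674-123182973 on the minus strand, Cyp2j13 at chr4:96077491-96077790 on the minus strand and Slco1a1 at chr6:141946913-141947212 on the minus strand.
Ugt1a2: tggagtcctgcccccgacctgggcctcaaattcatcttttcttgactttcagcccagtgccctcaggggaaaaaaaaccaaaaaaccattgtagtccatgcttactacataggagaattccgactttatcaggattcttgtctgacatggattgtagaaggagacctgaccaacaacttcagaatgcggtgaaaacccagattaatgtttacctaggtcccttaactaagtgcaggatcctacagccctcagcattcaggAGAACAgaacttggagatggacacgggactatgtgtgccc
Hpd: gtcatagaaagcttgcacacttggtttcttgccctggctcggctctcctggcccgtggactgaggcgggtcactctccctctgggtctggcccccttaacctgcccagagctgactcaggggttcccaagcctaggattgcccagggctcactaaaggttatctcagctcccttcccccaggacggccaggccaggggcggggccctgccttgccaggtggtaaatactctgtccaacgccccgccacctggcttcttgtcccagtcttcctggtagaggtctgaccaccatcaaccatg
Cyp2j13: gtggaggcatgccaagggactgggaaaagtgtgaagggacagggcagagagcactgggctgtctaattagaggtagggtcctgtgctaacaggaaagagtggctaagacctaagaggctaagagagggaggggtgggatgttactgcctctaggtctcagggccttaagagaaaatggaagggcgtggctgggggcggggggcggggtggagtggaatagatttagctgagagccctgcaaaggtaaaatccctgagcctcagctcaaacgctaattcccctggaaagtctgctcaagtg
Slco1a1: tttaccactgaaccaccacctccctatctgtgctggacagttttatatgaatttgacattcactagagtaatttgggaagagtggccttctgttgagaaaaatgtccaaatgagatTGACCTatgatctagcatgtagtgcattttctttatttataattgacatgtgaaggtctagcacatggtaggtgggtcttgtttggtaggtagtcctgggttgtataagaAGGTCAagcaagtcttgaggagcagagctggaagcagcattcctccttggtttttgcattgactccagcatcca
The Ugt1a2 window held AGAACA at position 261, and the Slco1a1 window held AGGTCA in both orientations, first at position 117. With both strands and all listed promoters of a gene searched, and motifs free to overlap each other, AGAACA was found in 21.3% of 27025 genes, AGGTCA in 18.1%, TTCNNNGAA in 9.55% and GTTAAT in 8.24%. Among the leading 15 genes higher in D21-ovx, 10 had an entry, and 4 of these held AGAACA and 3 held AGGTCA. Among the 15 leading lower genes 12 had an entry, of which 2 held AGAACA and 4 held AGGTCA. A match describes the letters in the window and does not show binding.

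Other leading higher genes encode a hormone receptor and enzymes of retinol and fatty acid metabolism. Prlr (ENSMUSG00000005268), the gene of the prolactin receptor, was at 76.13, 78.48 and 57.25 FPKM in D21-ovx and at 0.92, 0.66 and 1.17 in M (log2 difference 5.22, SE 0.15, adjusted p = 2.35e-06). Rdh16f2, a retinol dehydrogenase gene, was at 430.93, 445.68 and 400.16 FPKM in D21-ovx and at 6.46, 32.87 and 20.93 in M, where the male libraries differed over 5-fold (4.59, adjusted p = 0.00137). Cyp4a14, which encodes a fatty acid omega-hydroxylase, was also uneven among the male libraries, with 364.39, 487.5 and 452.47 FPKM in D21-ovx against 1.32, 8.08 and 12.89 in M (6.03, SE 0.58, adjusted p = 0.000912). With the marker covariate the log2 difference of Cyp4a14 was 6.24 and its adjusted p 0.0541. None of these 3 genes had overlapping libraries, but the rule for leading genes required this, so it is no separate result.

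Betaine, pyrimidine and glutamine genes were also among the leading ones. Bhmt, whose enzyme remethylates homocysteine with betaine, was at 25.71, 23.76 and 30.38 FPKM in D21-ovx and at 0.58, 0.37 and 0.61 in M (log2 difference 4.18, SE 0.13, adjusted p = 2.58e-06). Dpys, the dihydropyrimidinase gene of uracil and thymine breakdown, was at 29.97, 29.57 and 24.46 FPKM against 1.15, 1.32 and 1.3 (3.68, SE 0.11, adjusted p = 2.48e-06). Slc38a3, a glutamine transporter of the basolateral side, was at 27.13, 26.47 and 23.86 FPKM against 1.45, 1.39 and 1.43 (3.47, SE 0.09, adjusted p = 1.55e-06). All 3 genes were low and even in the males and many times higher in each ovariectomized library. Kynu, the kynureninase gene, Slc22a13, the gene of a nicotinate and urate exchanger, and the serpin gene Serpina1a had log2 differences of 3.33, 3.52 and 4.48 with adjusted p of 3.06e-05, 5.81e-05 and 3.06e-05.

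The male set led the other direction. Cyp2j13 (ENSMUSG00000028571), a P450 gene of the epoxygenase subfamily, was at 0.26, 0.2 and 0.12 FPKM in D21-ovx and at 99.41, 106.4 and 90.69 in M (log2 difference -6.39, SE 0.10, adjusted p = 1.73e-07). Slc7a13 (ENSMUSG00000041052), which encodes an aspartate, glutamate and cystine carrier of the late proximal tubule, was at 0.06, 0.33 and 0.09 FPKM against 50.94, 50.95 and 41.46 (-5.40, SE 0.13, adjusted p = 1.18e-06). Slco1a1, an organic anion transporter gene, was listed at 0, 0 and 0.02 FPKM in D21-ovx and stood at 29.04, 20.5 and 14.08 in M. The transcripts of these 3 genes were nearly missing from the ovariectomized females. Cyp4b1, a P450 gene for fatty acids and xenobiotics, was reduced but far from missing, at 67.68, 106.38 and 80.43 FPKM against 1312.63, 1538.37 and 1184.62 (-3.99, SE 0.17, adjusted p = 1.70e-05).

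Kap (ENSMUSG00000032758), the gene of kidney androgen-regulated protein, was among the most abundant transcripts of the male cells. It was at 6493.8, 11081.2 and 8582.8 FPKM in M and at 838.38, 624.06 and 372.87 FPKM in D21-ovx (log2 difference -3.87, SE 0.30, adjusted p = 0.000399). The D21-ovx libraries differed by over 2-fold among themselves but stayed well under every male library. Odc1, whose enzyme starts polyamine synthesis and which androgen is known to raise in mouse kidney, was at 214.28, 221.99 and 200.1 FPKM in D21-ovx and at 401.88, 428.92 and 440.56 in M (SE 0.07, adjusted p = 0.000216), and all 3 D21-ovx values were under all male ones. The carboxylesterase gene Ces1f, the fatty acid uptake gene Cd36 and Pzp, which encodes a protease-trapping protein of the alpha-2-macroglobulin family, were lower by log2 differences of -4.18, -3.16 and -3.36. Of 25 tested genes known from earlier work as androgen-regulated or higher in male kidney, 20 were lower and 2 higher, with a median of -2.51 against -0.089 for all genes. Of 16 tested genes known as higher in female kidney, 10 were higher and 1 lower, with a median of 2.50. Over all genes tested 4.78% were called higher and 5.64% lower. These lists were taken from knowledge of kidney sex differences, with earlier results of these data known. The 3 male libraries are also part of the sham comparison, so the counts are a description and no independent check.

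**Figure D2:**
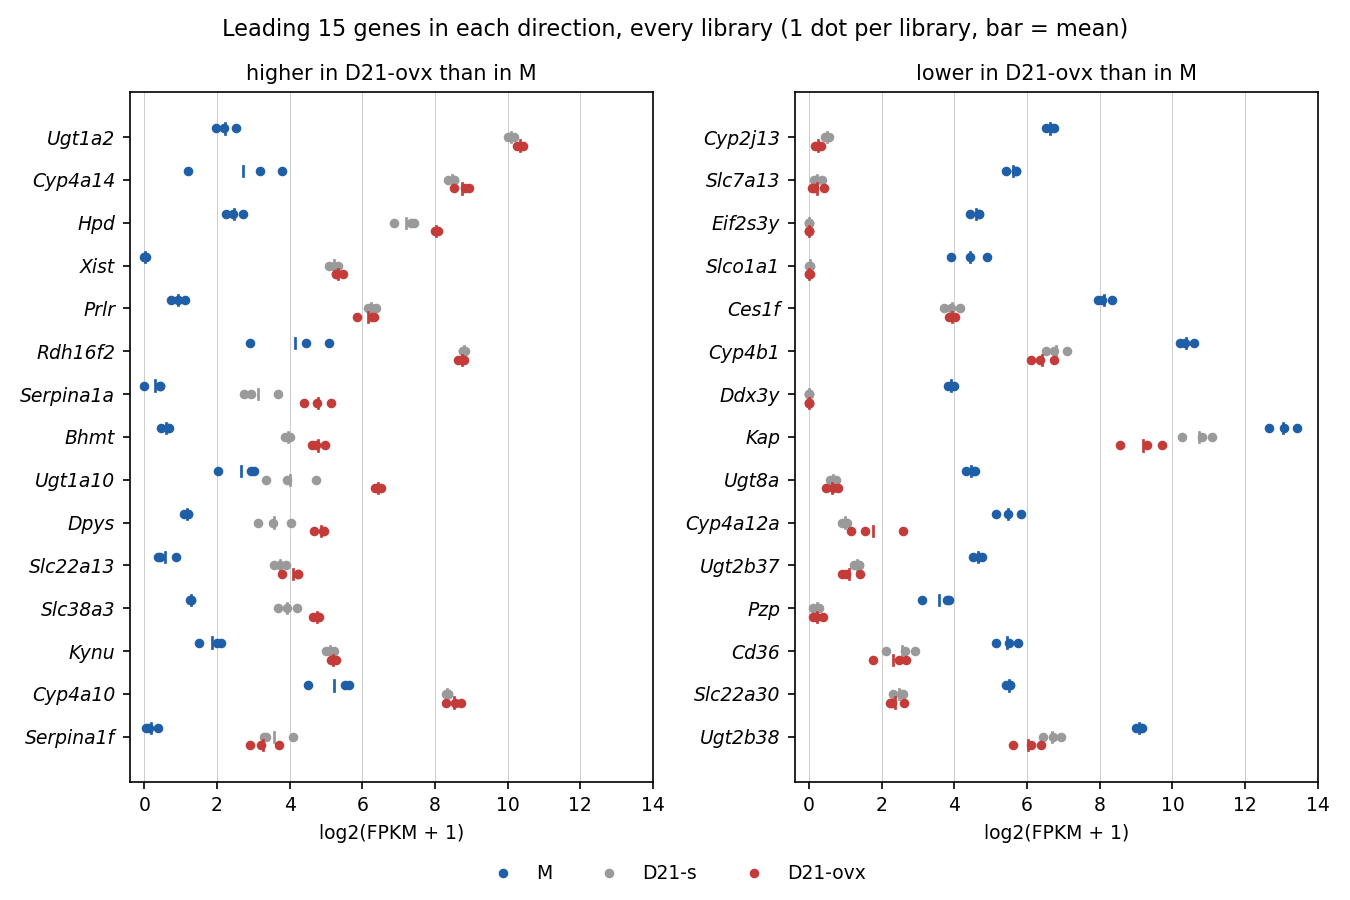
Every library is a dot at its log2(FPKM + 1) for the 15 leading genes in each direction, with a bar at the mean, blue for M, grey for D21-s and red for D21-ovx. The red and blue dots of each gene are apart because the rule for leading genes required it. For Ugt1a2, Hpd, Serpina1a, Bhmt, Ugt1a10, Dpys and Slc38a3, and for the lower gene Cyp4a12a, the red dots also lie to the right of all grey dots. For Cyp2j13, Kap and Ugt2b38 they lie to the left of all grey dots. None of these genes was called between D21-ovx and D21-s.

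Genes of the sex chromosomes checked the labels. Xist, a noncoding RNA that coats and silences the inactive X, was at 37.58, 43.15 and 37.45 FPKM in D21-ovx and at 0.04, 0 and 0.01 in M. The Y-linked genes Ddx3y, Eif2s3y, Kdm5d and Uty were listed at 0 in every D21-ovx library. In M they stood at 14.79, 13.11 and 14 FPKM for Ddx3y and at 24.52, 24.57 and 20.36 for Eif2s3y. All 4 tested Y-linked genes of the list were called lower. Of 8 tested genes of X inactivation and escape 4 were called higher, which were Xist, Eif2s3x, Kdm6a and Ddx3x, and none was lower. With the marker covariate 1 was higher, and Kdm6a and Ddx3x had an adjusted p of 0.125 and 0.498. Eif2s3x, an initiation factor gene whose second copy escapes silencing, was at 52.16, 53.28 and 50.99 FPKM in D21-ovx against 33.89, 29.57 and 30.93 in M (log2 difference 0.71, adjusted p = 0.00142), with 0.64 and an adjusted p of 0.103 with the marker covariate. Over the whole X chromosome 27 of 395 genes (6.84%) were higher and 19 (4.81%) lower, against 4.78% and 5.64% of all genes.

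Of 8 tested hormone receptor genes 2 were called higher, Prlr among them, and none lower, and 1 was higher with the marker covariate. Esr1, the gene of estrogen receptor alpha, did not pass the filter, with 1.61, 1.25 and 0.96 FPKM in D21-ovx and 0.65, 0.74 and 0.51 in M. Steroid-converting enzymes went both ways, with 4 of 18 tested members higher and 8 lower (median -0.19), and 0 and 2 with the marker covariate. Akr1c14, a hydroxysteroid dehydrogenase gene that inactivates dihydrotestosterone, was at 1.2, 0.36 and 0.36 FPKM in D21-ovx and at 10.49, 13.53 and 11.62 in M (-3.01, adjusted p = 0.000216). Hsd3b2, of the hydroxysteroid dehydrogenase family, was at 25.61, 26.1 and 26.12 FPKM against 65.44, 69.3 and 94.41 (-1.50, adjusted p = 0.000635). Of 21 tested genes of growth hormone, prolactin and STAT signalling none was higher and 2 were lower, and none was called with the marker covariate. The shares over all genes tested were 4.78% higher and 5.64% lower.

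Enzymes that oxidize and conjugate foreign compounds split within families. Of 31 tested P450 genes 6 were higher and 9 lower, and with the marker covariate 3 and 6. The fatty acid hydroxylase gene Cyp4a10 was at 316.11, 420.23 and 374.68 FPKM in D21-ovx against 21.55, 45.39 and 49.18 in M (log2 difference 3.30, adjusted p = 0.000595). Cyp4a12a of the same cluster, known as the male form, was at 1.24, 1.9 and 5.01 FPKM against 56.5, 34.17 and 43.5 (-3.72, adjusted p = 0.000871). Glucuronosyltransferases had 4 of 12 tested members higher, all in the Ugt1a locus, and 4 lower, and with the marker covariate 3 and 3. Among the lower members, Ugt1a6b (-1.38) lies in the Ugt1a locus too, so this locus also held both directions. Ugt2b38 was at 48.05, 82.38 and 67.6 FPKM in D21-ovx and at 569.73, 506.74 and 561.26 in M (-3.06, adjusted p = 9.52e-05), and Ugt2b37 at 0.89, 1.62 and 1.01 against 21.59, 24.77 and 26.23 (-3.55, adjusted p = 1.70e-05). Ugt8a, which makes galactosylceramide, was also lower (-3.83). The Ugt1a genes share all exons but the first, and Ugt2b, Cyp4a12, Gsta, Acot and Serpina1 genes have close copies, so the division of reads within each family is an estimate and single members are uncertain. Carboxylesterases had 1 of 8 tested members higher, Ces1d, and 4 lower, and with the marker covariate 1 and 1.

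Glutathione S-transferases, which join glutathione to reactive compounds, moved in one direction. Of 20 tested members 12 were higher and none lower, with a median log2 difference of 0.71 against -0.089 for all genes, and 9 were higher with the marker covariate. Gsta4, which acts on lipid peroxidation products, was at 274.38, 246.23 and 271.65 FPKM in D21-ovx and at 38, 44.81 and 37.6 in M (2.69, SE 0.09, adjusted p = 3.77e-06). Gsta2 was at 1165.63, 1149.83 and 1218.72 FPKM against 282.5, 210.26 and 328.3 (2.13, adjusted p = 0.00022), and Mgst1, the microsomal form, at 195.08, 175.49 and 192.63 against 61.79, 61 and 64.46 (1.57, adjusted p = 1.95e-05). For these 3 genes every ovariectomized library was above every male one by more than 2-fold. Of 23 tested targets of the oxidant sensor NRF2 and genes of glutathione synthesis 7 were higher and none lower, and with the marker covariate 2 and none. Among them Nqo1, a quinone reductase gene, was at 40.19, 34.03 and 40.37 FPKM against 16.91, 17.78 and 17.96 (1.08, adjusted p = 0.000463). Sulfotransferases and genes of sulfate supply had 2 of 8 tested members higher and 1 lower, and with the marker covariate 1 and none. Papss2, which makes the sulfate donor, was at 181.5, 190.95 and 170.62 FPKM against 50.73, 70.11 and 62.75 (1.56, adjusted p = 0.00033). Papss1, of the same function, had a log2 difference of -0.68 and lost its call without D21-ovx library 2 (0.0657) or 3 (0.0522) and without M library 2 (0.0517) or 3 (0.0657).

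Transporter genes differed in both directions within families. Of 19 tested organic anion transporters 4 were higher and 6 lower, and with the marker covariate 3 and 3. Slc22a8, the basolateral carrier OAT3, was at 393.24, 407.32 and 382.68 FPKM in D21-ovx and at 171.11, 186.28 and 171.59 in M (log2 difference 1.16, SE 0.06, adjusted p = 7.93e-05). Slc22a29 was at 33.57, 43.13 and 41.79 FPKM against 5.11, 3.17 and 4.57 (2.95, adjusted p = 7.93e-05). Slc22a30, which lies near it, was at 3.85, 5.13 and 3.67 against 45.51, 44.93 and 42.05 (-3.12, adjusted p = 9.04e-06). Slc22a29 and Slc22a30 thus had opposite patterns with tight replicates. How reads were divided between these related genes was not tested, and tight replicates do not bear on it. Organic cation, carnitine and efflux transporters had 8 of 19 tested members higher and none lower, with 3 higher under the marker covariate. The multidrug efflux pump genes Abcb1a and Abcb1b were at 10.84, 10.6 and 8.85 and at 18.91, 16.33 and 16.4 FPKM in D21-ovx, against 1.64, 1.53 and 1.1 and 2.72, 1.46 and 1.35 in M (2.20 and 2.71, adjusted p = 0.000133 and 0.000189). Abcc4, a pump for urate, cyclic nucleotides and drug conjugates, was at 66.22, 68.95 and 68.14 FPKM against 20.06, 12.83 and 14.21 (2.07, adjusted p = 0.000253).

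Carriers of nutrients were in part higher. Of 29 tested amino acid transporters 9 were higher and 4 lower, and with the marker covariate 3 and 1. Slc6a18, a neutral amino acid transporter of the late segment, was at 198.79, 227.03 and 176.3 FPKM in D21-ovx and at 22.14, 33.37 and 26 in M (log2 difference 2.85, SE 0.15, adjusted p = 7.30e-05). Slc7a12 was at 7.91, 3.59 and 2.36 FPKM against 0.23, 0.27 and 0.24 (2.05, SE 0.33, adjusted p = 0.00901), with D21-ovx libraries that differed over 3-fold. Of 20 tested sugar and monocarboxylate transporters 8 were higher and 1 lower, and with the marker covariate 2 and none. The sodium-glucose carrier gene Slc5a1 of the late segment was at 27.2, 26.19 and 22.5 FPKM against 5.22, 10.35 and 8.43 (1.59, adjusted p = 0.00408). Slc16a4, a monocarboxylate transporter gene, was at 64.15, 71.54 and 67.12 FPKM against 29.08, 28.61 and 29.56 (1.19, adjusted p = 0.000107).

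Of 27 tested genes of phosphate, ion, citrate and water transport 5 were higher and 1 lower, near the background share for the lower side, and with the marker covariate 3 and none. The dicarboxylate carrier genes Slc13a3 and Slc13a2, which take up citrate and its relatives, were at 567.88, 622.77 and 530.48 and at 46.5, 41.39 and 44.15 FPKM in D21-ovx, against 144.6, 235.8 and 170.12 and 13.33, 14.61 and 10.92 in M (1.67 and 1.70, adjusted p = 0.00116 and 0.000181). The water channel gene Aqp1 was at 276.68, 294.07 and 270.66 FPKM against 95.63, 139.5 and 96.15 (1.36, adjusted p = 0.00147). Of 15 tested endocytic receptors and partners none was called. The libraries of Cubn, the cubilin gene of protein uptake, did not overlap, at 66.04, 77.13 and 74.02 FPKM in D21-ovx and 60.11, 35.09 and 44.19 in M, and its adjusted p was 0.0578. It was chosen after its values were seen. None of 12 tested iron genes was called.

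**Figure D3:**
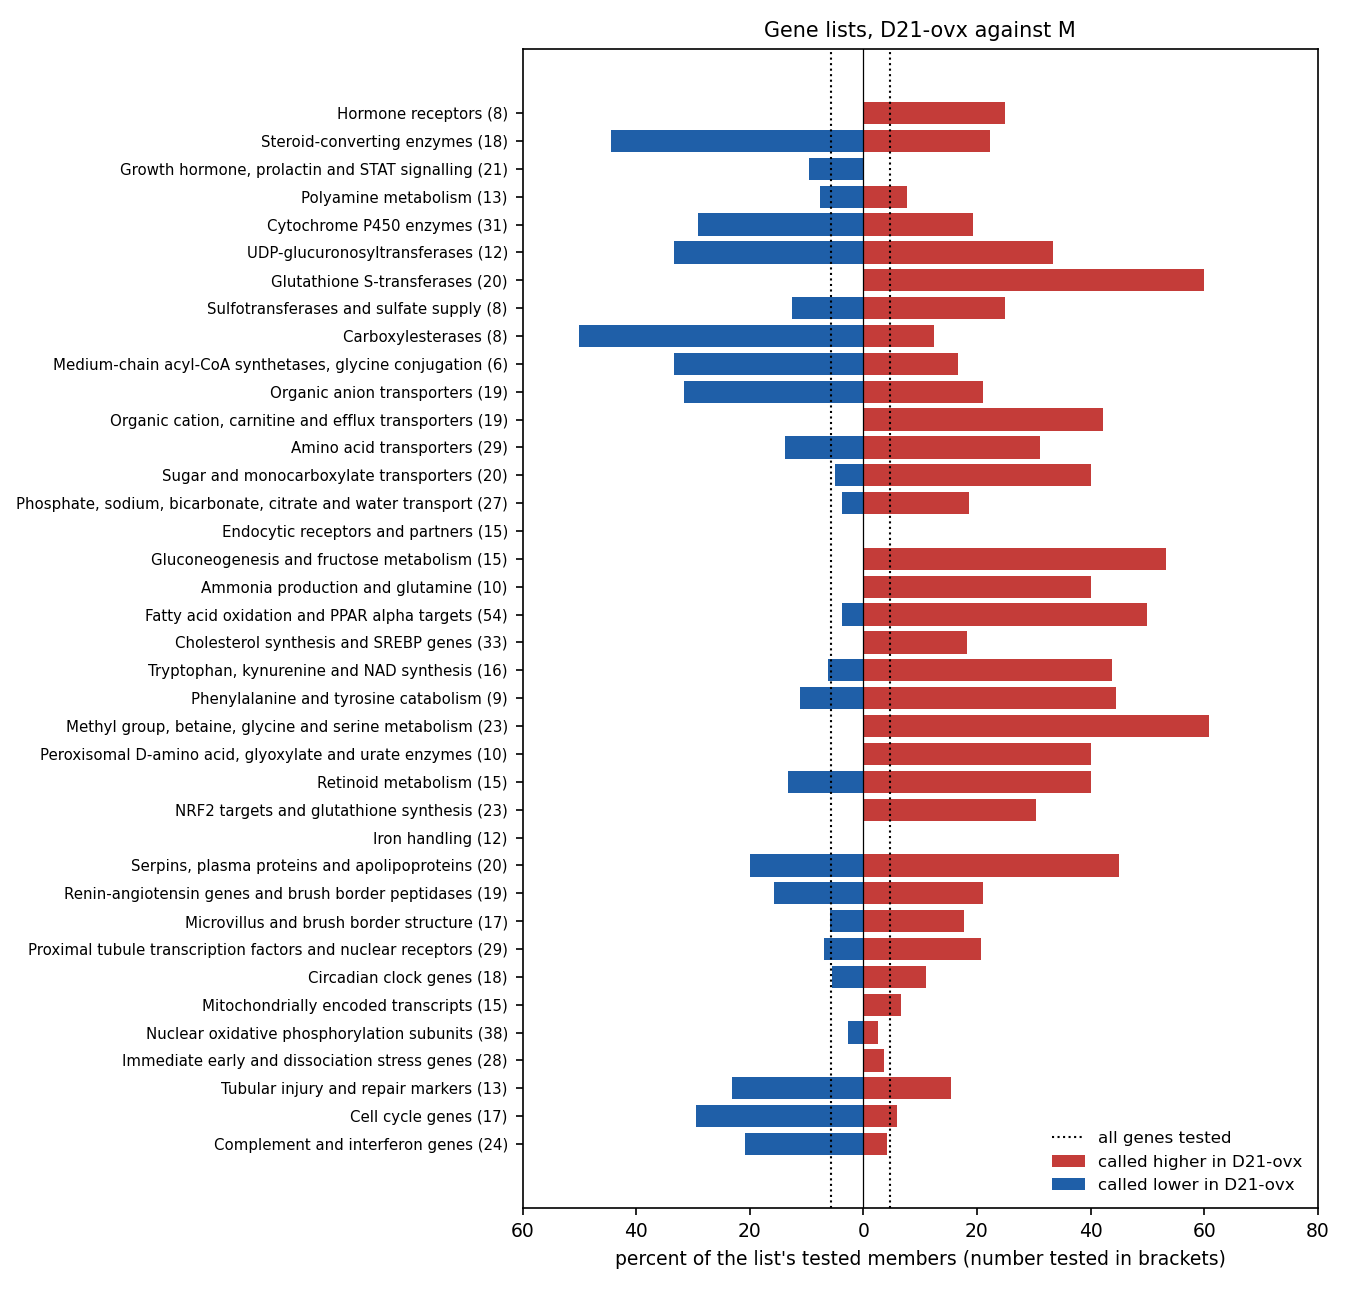
Bars give the percent of the tested members of each list that were called higher (red, to the right) or lower (blue, to the left) in D21-ovx, with the number tested in brackets. Dotted lines mark 4.78% and 5.64%, the shares over all genes tested, and the longest red bars belong to glutathione S-transferases (12 of 20) and methyl group metabolism (14 of 23).

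In metabolic lists the called members were mostly higher in the ovariectomized females, while many members were not called. Of 23 tested genes of methyl group, betaine, glycine and serine metabolism 14 were higher and none lower, with a median log2 difference of 0.50, and 6 were higher with the marker covariate. Dmgdh, the dimethylglycine dehydrogenase gene that acts after Bhmt, was at 66.1, 66.13 and 58.8 FPKM in D21-ovx and at 8.33, 15.67 and 12.54 in M (2.33, adjusted p = 0.000463). Cth, the cystathionine gamma-lyase gene that forms cysteine, was at 110.93, 106.88 and 98.78 FPKM against 42.18, 47.46 and 42.61 (1.24, adjusted p = 0.00015). Of 9 tested genes of phenylalanine and tyrosine breakdown 4 were higher and 1 lower, and with the marker covariate 2 and none. Hpd was far above the steps next to it, since Gstz1 and Hgd had log2 differences of 0.69 and 0.67, and that of Hgd was 0.66 with the marker covariate (adjusted p = 0.0518). Of 16 tested genes of tryptophan and NAD synthesis 7 were higher and 1 lower, and with the marker covariate 4 and none. Kmo, the kynurenine hydroxylase gene, was at 73.49, 83.06 and 75.25 FPKM against 41.53, 39.41 and 38.08 (0.94, adjusted p = 0.000417).

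Of 54 tested genes of fatty acid oxidation and targets of the lipid sensor PPAR alpha, 27 were higher and 2 lower, with a median of 0.38. After median-ratio scaling 34 and 2 were called, and with the marker covariate 5 and 1. Acaa1b, a peroxisomal thiolase gene, was at 665.69, 715.65 and 667.23 FPKM in D21-ovx and at 96.58, 152.68 and 98.72 in M (log2 difference 2.58, adjusted p = 0.000158). Fabp1, a fatty acid binding protein gene, was at 13.75, 17.29 and 16.33 FPKM against 1.07, 2.36 and 1.86 (2.63, adjusted p = 0.00024), and Acot3, a peroxisomal thioesterase gene, at 37.24, 43.91 and 45.05 against 8.29, 8.04 and 7.66 (2.25, adjusted p = 1.70e-05). The groups were far apart for all 3 of these genes. Both lower members, Cd36 and Fabp3, serve fatty acid uptake and binding.

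Of 15 tested genes of gluconeogenesis and fructose metabolism 8 were higher and none lower (median 0.42), and 2 were higher with the marker covariate. Pck1, which encodes the phosphoenolpyruvate carboxykinase of gluconeogenesis, was at 2808.92, 2988.61 and 2424.45 FPKM in D21-ovx and at 1018.43, 864.51 and 911.45 in M (log2 difference 1.55, SE 0.10, adjusted p = 0.000158). Khk, the fructokinase gene, was at 651.81, 611.84 and 593.75 FPKM against 365.96, 385.82 and 359.77 (0.74, adjusted p = 0.000629). Neither gene had overlapping libraries, and both kept their calls with the covariate. Of 10 tested genes of ammonia production 4 were higher and none lower, and with the marker covariate 1 and none. Glul, the glutamine synthetase gene, was at 570.52, 706.9 and 450.86 FPKM against 281.62, 225.6 and 234.59 (1.20, adjusted p = 0.00471), with 1.03 and an adjusted p of 0.219 with the marker covariate. Of 33 tested cholesterol and SREBP genes 6 were higher and none lower, and with the marker covariate 1 and none. The desaturase gene Scd1 was at 24.48, 14.92 and 11.41 FPKM against 1.89, 1.96 and 1.9 (2.55, adjusted p = 0.000795). Peroxisomal oxidases had 4 of 10 tested members higher and none lower, and with the marker covariate 2 and none. Hao2, a hydroxyacid oxidase gene, was at 355.41, 415.82 and 376.36 FPKM against 67.79, 75.25 and 70.41 (2.41, adjusted p = 3.77e-06), and Cat, the catalase gene, at 517.23, 528.33 and 505.65 against 271.96, 249.33 and 238.15 (1.03, adjusted p = 0.000183).

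Retinoid genes had 6 of 15 tested members higher and 2 lower, and with the marker covariate 4 and 1. Aldh1a1, a retinaldehyde dehydrogenase gene, was at 9.33, 11.43 and 11.5 FPKM in D21-ovx and at 1.22, 2.19 and 2.08 in M (log2 difference 2.07, adjusted p = 0.000417). Rarres2, the gene of the adipokine chemerin, was at 52.07, 52.24 and 44.31 FPKM against 5.73, 10.49 and 9.87 (2.42, adjusted p = 0.00046). Of 20 tested serpins, plasma proteins and apolipoproteins 9 were higher and 4 lower, and with the marker covariate 5 and 2. The serpin genes led this list, with Serpina1a at 34.58, 20.13 and 26.13 FPKM against 0.35, 0 and 0.35 (4.48). Acyl-CoA synthetases of medium chain length, which start glycine conjugation of acids, had 1 of 6 tested members higher and 2 lower, and with the marker covariate none and 2. Acsm2, an abundant member, was at 892.95, 1051.33 and 1044.35 FPKM against 2097.47, 2110.03 and 1964.89 (-1.05, SE 0.08, adjusted p = 0.000401).

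Of 29 tested proximal tubule transcription factors and nuclear receptors 6 were higher and 2 lower, and none was called with the marker covariate. Ppara, the gene of PPAR alpha itself, was at 27.75, 29.4 and 33.68 FPKM in D21-ovx and at 19.4, 14.32 and 16.61 in M (log2 difference 0.82, adjusted p = 0.00762), with 0.54 and an adjusted p of 0.324 with the marker covariate. Clock genes had 2 of 18 tested members higher and 1 lower, and none was called with the marker covariate. Over all genes tested 4.78% were called higher and 5.64% lower, so the lower counts of both lists are near the background share. The renin-angiotensin and brush border peptidase list had 4 of 19 higher and 3 lower. That of microvillus structure had 3 of 17 higher and 1 lower, the lower count again near the background share. With the marker covariate the peptidase and microvillus lists each had 1 higher and none lower. Prom1, the gene of the protein used for sorting, was at 68.51, 76.14 and 78.52 FPKM against 42.05, 39.4 and 54.59 (0.71, adjusted p = 0.0143). The call of Prom1 was lost without D21-ovx library 2 (0.0632) or 3 (0.0614) and with the marker covariate (0.438), where its log2 difference was 0.48. The sort therefore selected on a protein whose transcript itself differed between the groups, and its part in the other results was not tested.

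Markers of the collecting duct summed to less in D21-ovx, while sums for the distal convoluted tubule and the thick ascending limb overlapped. The summed FPKM of 10 collecting duct principal cell markers was 280.3, 391 and 353 in M and 252, 171 and 225 in D21-ovx, and that of 11 intercalated cell markers 265, 361 and 324 against 230.3, 130.3 and 212. Neither sum overlapped between the groups. Among all single genes tested, 23.4% did not overlap with D21-ovx lower, so non-overlap in this direction was common. Sums overlapped for the distal convoluted tubule, at 3573, 4315 and 4561 in M and 3879, 3207 and 3676 in D21-ovx, and for the thick ascending limb, at 1659, 2700.2 and 2407 against 1796, 1281 and 1532. Thin limb markers summed to 152, 211 and 162 in M and to more, 321, 323 and 306, in D21-ovx. Most of this sum was Aqp1, which proximal cells also express, at 95.63, 139.5 and 96.15 FPKM in M and 276.68, 294.07 and 270.66 in D21-ovx. The median log2 difference of the 4 tested thin limb markers was -0.75, and Akr1b3 and Cryab were called lower. Of the 8 principal and 11 intercalated cell markers tested 4 and 3 were called lower and none higher, and none of the 7 was called without D21-ovx library 2, without M library 2 or without M library 3. Adjusted p without M library 3 was 0.0741 (Hsd11b2) to 0.114 (Slc26a4). For the distal convoluted tubule 3 of 10 tested markers were lower, with Slc12a3 among them (log2 difference -0.83, adjusted p = 0.0365). The call of Slc12a3 was lost without D21-ovx library 2 (0.062) or 3 (0.0648) and without M library 2 (0.0995) or 3 (0.106). These markers are part of the score used as covariate, so the fit with it does not bear on them. For the thick ascending limb none of 8 was called, and its sodium-potassium-chloride transporter gene Slc12a1 overlapped between the groups at 133.1, 97.88 and 108.31 against 89.14, 149.6 and 127.78 FPKM. Podocyte markers had 1 of 8 tested members lower, and endothelial, fibroblast and red cell markers had none called of 10, 8 and 4. Of 4 tested leukocyte markers 1 was lower. Red cell markers were uneven within D21-ovx, with sums of 86.2, 17.2 and 7.85 FPKM against 83.1, 42 and 39.2 in M, and adrenal markers summed to at most 0.98 FPKM in any library. Their part in the calls was not tested beyond the fit with the score as a covariate.

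Within the proximal tubule, called markers of the late segment went in both directions. Summed over 10 S3 markers the level was 2104, 2446 and 2134 FPKM in D21-ovx and 1258, 1500.1 and 1203 in M, without overlap. Among all single genes tested, 10.8% did not overlap with D21-ovx higher. Of 9 tested S3 markers 6 were higher, among them Slc6a18, Slc5a1 and Slc22a13, and 2 were lower, which were Slc7a13 and Atp11a. Atp11a, a phospholipid flippase gene, was at 19.43, 15.99 and 16.92 FPKM against 72.69, 82.38 and 60.26 (log2 difference -1.97, adjusted p = 0.000158). The S3 markers Slc7a13 and Slc7a12 are also in the lists of genes known as higher in male or female kidney. Of 12 tested markers of the early segments 3 were higher and none lower. Their sum did not overlap either, at 9119, 9857 and 9759 FPKM in D21-ovx and 8109, 6663 and 6997 in M. Thin limb markers had Aqp1 higher, which proximal cells also express, and 2 of 4 tested members lower.

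**Figure D4:**
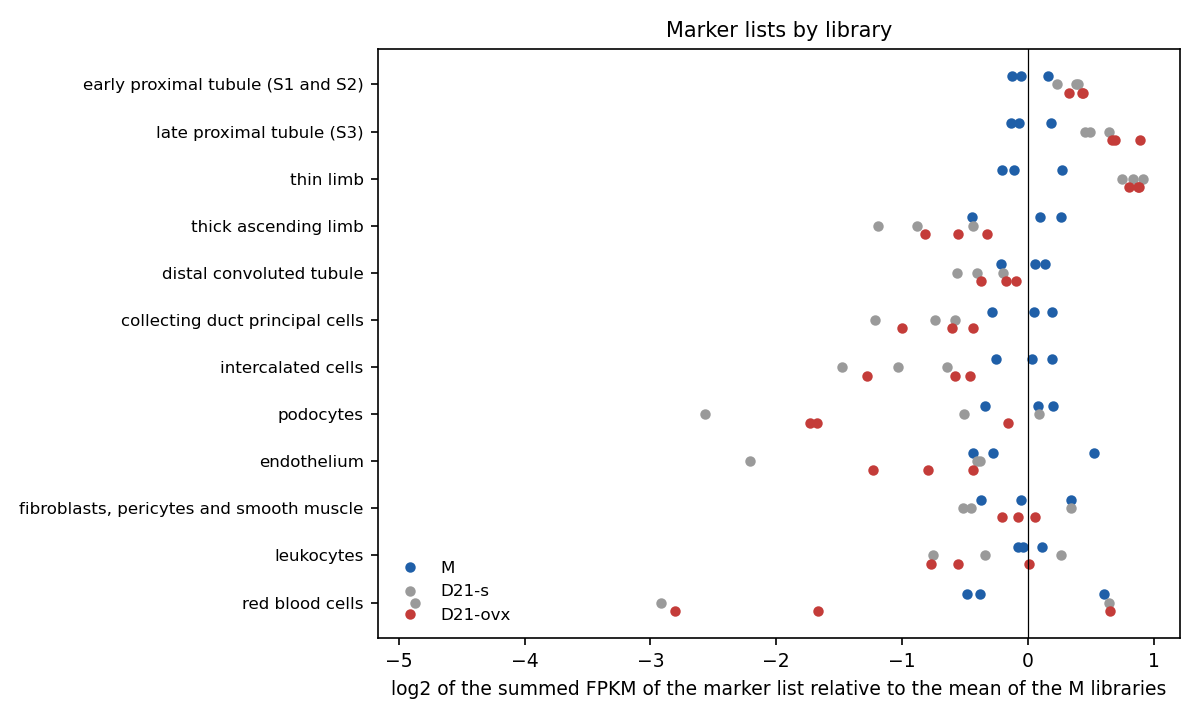
For each marker list a dot gives the summed FPKM of 1 library as log2 relative to the mean of the 3 M libraries, blue for M, grey for D21-s and red for D21-ovx. Both proximal tubule lists lie to the right of M in D21-ovx, while principal and intercalated cell lists lie to its left, and podocyte and red cell lists vary widely between libraries of a group.

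Growth, stress and defence genes gave mixed counts. Of 17 tested cell cycle genes 1 was higher and 5 lower, with a median of -0.72 that ranged from -1.05 to -0.04 over the alternatives, and none was called with the marker covariate. Ccnd1, the cyclin D1 gene, was at 51.26, 36.7 and 46.78 FPKM in D21-ovx and at 107.29, 94 and 80.99 in M (log2 difference -1.05, adjusted p = 0.00495), with -0.80 and an adjusted p of 0.247 with the covariate. Of 13 tested injury markers 2 were higher and 3 lower, and with the marker covariate 1 and none. Spp1, the osteopontin gene, was at 1082.16, 1247.96 and 1216.51 FPKM against 667.36, 614.03 and 677.72 (0.85, adjusted p = 0.000757), while Havcr1, the kidney injury gene KIM-1, was too low to be tested, at 0, 0 and 0 against 0.33, 0.55 and 0.35. Lcn2, another injury gene, was also under the filter at 0.52, 0.65 and 0.27 against 0.35, 1.11 and 1.02. Complement and interferon genes had 1 of 24 tested members higher and 5 lower, and none was called with the covariate. Immediate early and dissociation stress genes had 1 of 28 higher and none lower, which is under the background share. Respiratory chain subunits of the nucleus had 1 of 38 higher and 1 lower, and mitochondrially encoded transcripts 1 of 15 higher. Polyamine genes other than Odc1 had 1 member higher, the spermine synthase gene Sms on the X chromosome (0.62, adjusted p = 0.00203, and 0.68 with 0.0713 under the covariate).

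Some strongly different genes lay near each other. Of 299 genes called with a difference of 2-fold or more, 55 fell into 14 runs of at least 3 such genes with gaps of at most 500000 bases, and 6 of the runs had a single direction. On chromosome 4 (115299046 to 115647723) Cyp4a14, Cyp4a10 and Cyp4a31 were higher, while Cyp4a12a, Cyp4a12b and Cyp4b1 were lower. On chromosome 19 (7557459 to 8611835) Slc22a19, Slc22a29 and Slc22a8 were higher and Slc22a28 and Slc22a30 lower. On chromosome 13 (93616675 to 93752833) Bhmt, Bhmt2 and Dmgdh were all higher, as were Serpina1f, Serpina1d and Serpina1a on chromosome 12 (103688044 to 103863562). On chromosome 8 (93166068 to 93337308) Ces1d was higher and its relatives Ces1f and Ces1g lower. Positions are those of build GRCm38. Runs made of close copies count related genes that share reads, so they are not independent events. Genes not called with 2-fold or more were passed over in forming runs, so the members need not be adjacent. How often genes at large would form such runs was not computed.

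**Figure D5:**
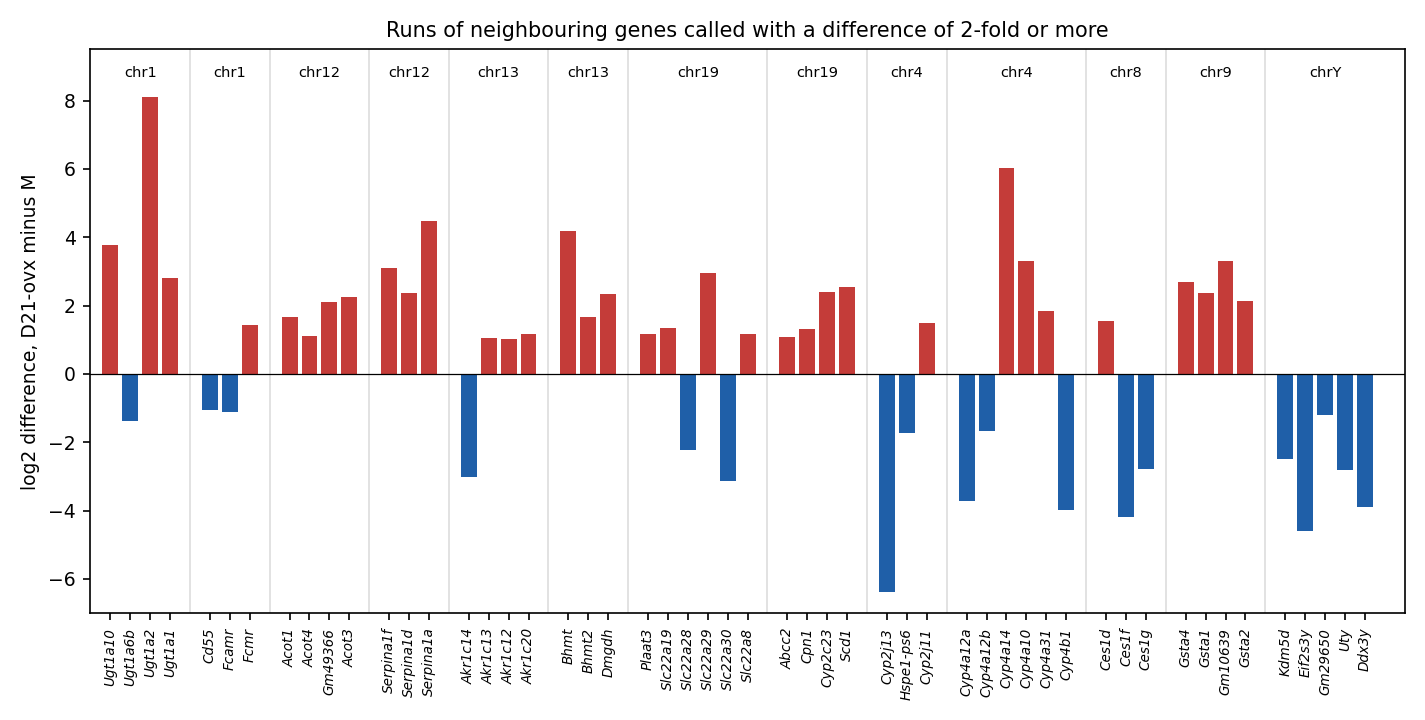
Bars give the log2 difference, D21-ovx minus M, of 52 genes in 13 of the 14 runs of nearby genes called with 2-fold or more. They are in order along each chromosome, red for higher and blue for lower. The runs of Gsta, Serpina1, Acot and Bhmt genes have bars of 1 sign, and those of Cyp4a, Slc22 and Ces1 genes hold bars of both signs.

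The level after ovariectomy can be set beside that of females with ovaries, D21-s, in a fit of all 9 libraries with 13160 genes. There 1 gene was called between D21-ovx and D21-s by limma, 0.0076% of those tested, against 828 genes (6.29%) with an unadjusted p under 0.05. Both comparisons use the same D21-ovx libraries, so the values are only placed side by side. Ugt1a2 was at 1063.12, 1161.36 and 1028.05 FPKM in D21-s, Prlr at 81.98, 74.08 and 70.53, and Cyp2j13 at 0.45, 0.4 and 0.35. For these genes both female groups were far from M. D21-ovx lay beyond D21-s without overlap for Ugt1a2 and Cyp2j13, but neither was called between them (limma adjusted p = 0.805 and 0.762). Cyp2j13 was under 1 FPKM in every library of both female groups. The share of all genes without overlap between D21-ovx and D21-s was not computed. Several other genes lay farther from M in D21-ovx than in D21-s, without a call. Ugt1a10, a sister of Ugt1a2, was at 90.39, 84.23 and 80.2 FPKM in D21-ovx, at 14.38, 25.53 and 9.16 in D21-s and at 7.14, 3.09 and 6.64 in M (D21-ovx minus D21-s 2.42, adjusted p = 0.0659). Rarres2 was at 15.9, 17.89 and 10.06 FPKM in D21-s, under each of its 3 values in D21-ovx (1.73, adjusted p = 0.0659). Bhmt was at 13.67, 15.21 and 14.81 FPKM in D21-s (0.82, adjusted p = 0.0659) and Kap at 2194.13, 1222.42 and 1810.7 (-1.54, adjusted p = 0.214).

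Other genes lay nearer to the male level after ovariectomy. Acsm3, a medium-chain acyl-CoA synthetase gene, was at 6.59, 7.38 and 7.56 FPKM in D21-ovx, at 1.41, 2.46 and 1.11 in D21-s and at 38.9, 62.78 and 38.66 in M (D21-ovx minus D21-s 1.65, adjusted p = 0.0659). Slc22a19 was at 5.31, 2.98 and 1.48 FPKM in D21-ovx, at 19.76, 13.56 and 18.29 in D21-s and at 0.42, 0.66 and 0.66 in M (-2.18, adjusted p = 0.0659). For both genes the 3 groups did not overlap, and neither passed the threshold. Slc22a19 was chosen after its values were seen. Pllp, which encodes plasmolipin, a membrane protein of the apical sorting route, was the gene that did. It was at 17.2, 16.51 and 17.08 FPKM in D21-ovx, at 40.54, 38.85 and 43.62 in D21-s and at 37.63, 25.51 and 32.86 in M. Both differences were negative, at -1.23 against D21-s (adjusted p = 0.0417) and -0.86 against M (adjusted p = 0.00846). The call against D21-s was not made without D21-ovx library 2 or 3 or D21-s library 1 or 3, where 0 genes were called, and 9 genes were called without D21-s library 2. The call against M was lost with the marker covariate (adjusted p = 0.12), where the log2 difference was -1.05.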

How the data were processed

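RNA-seq libraries of prominin-1-positive mouse kidney cells were analysed from the FPKM table that the authors deposited, with 2 decimals per value. Per the submitters' processing notes STAR 2.6.0c and RSEM were used. For the RSEM version, genome build and annotation the status is: not given in the sources used here. Deposited FPKM values were used as deposited, without scaling between libraries. Beside the named columns, 3 columns with numbers were not used. Positions came from GENCODE M21, which holds 52093 of the 52405 IDs, and promoters from RefSeq.

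FPKM holds no read counts. Depth was estimated from steps between low values: 64.8% to 70.8% of values of short single-transcript genes (300 to 800 bp) fell within 0.0055 FPKM of 1 to 3 reads, against 10.8% to 12.5% by spacing. No counting intervals were computed.

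Values were transformed to log2(FPKM + 1), a scale that understates differences of low genes, and tested by limma 3.58.1 (R 4.3.3; trended empirical Bayes, two-sided, Benjamini-Hochberg over all genes tested, called under 0.05). D21-ovx and D21-s were compared in a fit of all 9 libraries. Standard errors are those of the fit, and p-values set the difference between groups against the spread between libraries. The number of animals behind each library is not given. The fit was also run on data simulated with independent noise in each library, which does not bear on shifts in composition between libraries. Replicate numbers did not pair the samples. Alternatives changed the pseudocount, filter, scaling, variance model and libraries.

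Genes in 55 lists (971 of 976 symbols in the table), and the comparison itself, were chosen with earlier results of these data known. The rule named 170 genes: 20 fixed genes, the 15 leading called genes per direction with a mean of at least 5 FPKM in the higher group and no overlap, without predicted genes, and up to 5 called members of each list with at least 2. Other genes were chosen after their values were seen, and not all 170 are printed. Of the genes it names, a few are not reported here; each count includes them. Tables were made in Python 3.11.15 with pandas 2.3.3 and numpy 2.4.6, and figures with matplotlib 3.10.9.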

Additional observations from a re-analysis of the deposited data

Results flagged for a closer look

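Pllp drew attention because it alone was called between ovariectomized and sham-operated females, in a direct test of that difference (log2 difference -1.23, limma adjusted p = 0.0417). Its 3 D21-ovx values, 16.51 to 17.2 FPKM, lay under every value of D21-s, 38.85 to 43.62, and of M, 25.51 to 37.63.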

How the results depend on the processing

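Every alternative kept the direction of each of the 169 named genes that were called, whereas Slc12a1, not called at -0.09, ranged from -0.3 to 0.48. Of the 169, 83 kept their call under all 16 alternatives, 157 under the 3 scalings, 117 without each library in turn and 84 with the score of other cell types as a covariate, counting the alternatives in which a gene passed the filter on low values. Without a filter on low values 397 genes were called higher and 324 lower, and with the covariate 114 and 64; the cause was not tested. Leaving out 1 library at a time gave 313 to 680 higher and 226 to 878 lower genes, in fits with fewer samples. Between D21-ovx and D21-s the count was 2 without a filter, 0 after median-ratio scaling, quantile normalization or leaving out mitochondrially encoded genes, 3 without a variance trend, 3 with the covariate, and 0 to 9 without 1 library. FPKM gives no counts, so precision at low levels is unknown.

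Deviations of libraries with the same replicate number correlated at -0.03, 0 and 0.1, so the numbers were not taken as pairs. With the replicate number as a block 394 genes were called higher and 295 lower between D21-ovx and M, and 0 between D21-ovx and D21-s.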
